A study of Homo sapiens with 6 samples.

Results

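The genes described here are 39 genes of the NRF2 pathway and of the glutathione, thioredoxin and peroxiredoxin systems, listed by symbol and found among 60671 genes in the deposited counts. They fall into 9 groups by role, which cover NRF2 with its inhibitor KEAP1 and induced enzymes, glutathione synthesis and recycling, glutathione peroxidases, glutathione transferases, glutaredoxins, thioredoxins with their reductases, peroxiredoxins with sulfiredoxin, superoxide dismutases with catalase, and the transsulfuration enzymes. RNA was sequenced from NCI-H69, an established line of human small cell lung cancer of the neuroendocrine type, to ask what inactivation of the ABL kinases does to these cells. The treated group had 3 libraries from cells given GNF5, an allosteric inhibitor of the ABL kinases, at 20 µM for 48 h, and the control group had 3 libraries from cells given the vehicle DMSO for 48 h. All 6 libraries came from the same line with the genotype given as WT. The labels give the dose in micromolar beside each sample and in millimolar in the protocol, so its unit is uncertain. Whether replicates came from separate cultures is not stated, and the p-values below reflect the spread among these libraries alone, which may be technical.

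NRF2, the product of NFE2L2, is a transcription factor that KEAP1 holds in the cytosol and passes to the CUL3 ubiquitin ligase for degradation. Oxidants and electrophiles modify KEAP1, and NRF2 then enters the nucleus, pairs with small MAF proteins and binds antioxidant response elements in genes of detoxification and thiol metabolism. Glutathione is a small thiol made from glutamate, cysteine and glycine, which peroxidases, transferases and glutaredoxins use. Thioredoxin is a small protein that NADPH keeps reduced through thioredoxin reductase and that in turn recycles peroxiredoxins, the abundant enzymes that break down hydrogen peroxide. Mutations that activate this pathway are recurrent in non-small cell lung cancer.

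The GNF5 libraries held 46148701 to 58771023 counts and the DMSO libraries 56467189 to 60697602. Of 20734 genes that passed the expression filter, 61.6% differed between the groups in edgeR's quasi-likelihood test at an adjusted p under 0.05, with 31.0% higher and 30.7% lower with GNF5. The line's neuroendocrine genes were present, with INSM1 at 1464 ± 45.8 CPM (counts per 1000000 counts, mean ± SD) in GNF5 libraries and 1403 ± 34 CPM in DMSO libraries. Of 8 neuroendocrine markers, 2 were higher with GNF5 (NCAM1, 0.59 on the log2 scale, and DLL3, 0.26), 2 were lower (GRP, -1.24, and SYP, -0.27) and 4, INSM1 among them, were not called. Summed markers of other cell types were low, between 3.18 and 4.05 CPM in GNF5 libraries and 4.60 and 4.88 CPM in DMSO libraries for 5 leukocyte genes, and at most 4.23 CPM in any library for 5 lung epithelial genes. Erythroid markers summed to at most 0.372 CPM, and HBB, ALAS2, CD3E and SFTPB had 0 counts. Within these low sums, the leukocyte gene PTPRC was called lower (-2.25, 0.35 CPM with GNF5 and 1.63 CPM with DMSO). Of the lung epithelial genes, SFTPC was called lower (-0.94) and NAPSA higher (0.86). Fibroblast markers summed to between 64.8 and 72.0 CPM in GNF5 libraries and 120.2 and 125.9 CPM in DMSO libraries, nearly all from COL1A2 (log2 fold change -0.91, called lower). COL1A1, of the same list, was called higher, at 5.28 CPM with GNF5 and 2.89 CPM with DMSO (0.87, adjusted p = 1.7e-07), and DCN had 48 counts in the 6 libraries together. PDGFRB, with 73 counts in the 6 libraries together, was called lower (-1.91). The part of these differences in the changes below was not tested. In bulk RNA, fewer cells that express a gene and less of its RNA per cell cannot be told apart.

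All 39 members passed the expression filter. With GNF5, 9 were higher (23.1%, against 31.0% of all tested genes), 18 were lower (46.2%, against 30.7%) and 12 were not called. A call was thus made for 69.2% of members, against 61.6% of all tested genes. Most members are abundant, and among genes with a mean log2 CPM of at least 4, calls were made for 72.7% of 33 members, against 78.1% of 9291 genes. The 3 libraries of each group lay apart without overlap for 29 members (74.4%, against 65.9% of all tested genes). The median log2 fold change of the members, GNF5 over DMSO, was -0.07, against 0.0057 for all tested genes, and the median size of the change was 0.27, against 0.34. Of the called members, 2 rose by at least 2-fold, the sulfiredoxin gene SRXN1 and the cystathionine gamma-lyase gene CTH, and 0 fell by that much, with MGST1 (-0.94 on the log2 scale) the nearest. Among all tested genes, 4.95% rose and 6.69% fell by at least 2-fold. Summed over the 39 genes per exon length, the level was 1406 ± 34.9 CPM per kilobase of exon (FPKM) in GNF5 libraries and 1655 ± 48.6 FPKM in DMSO libraries.

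**Figure D1:**
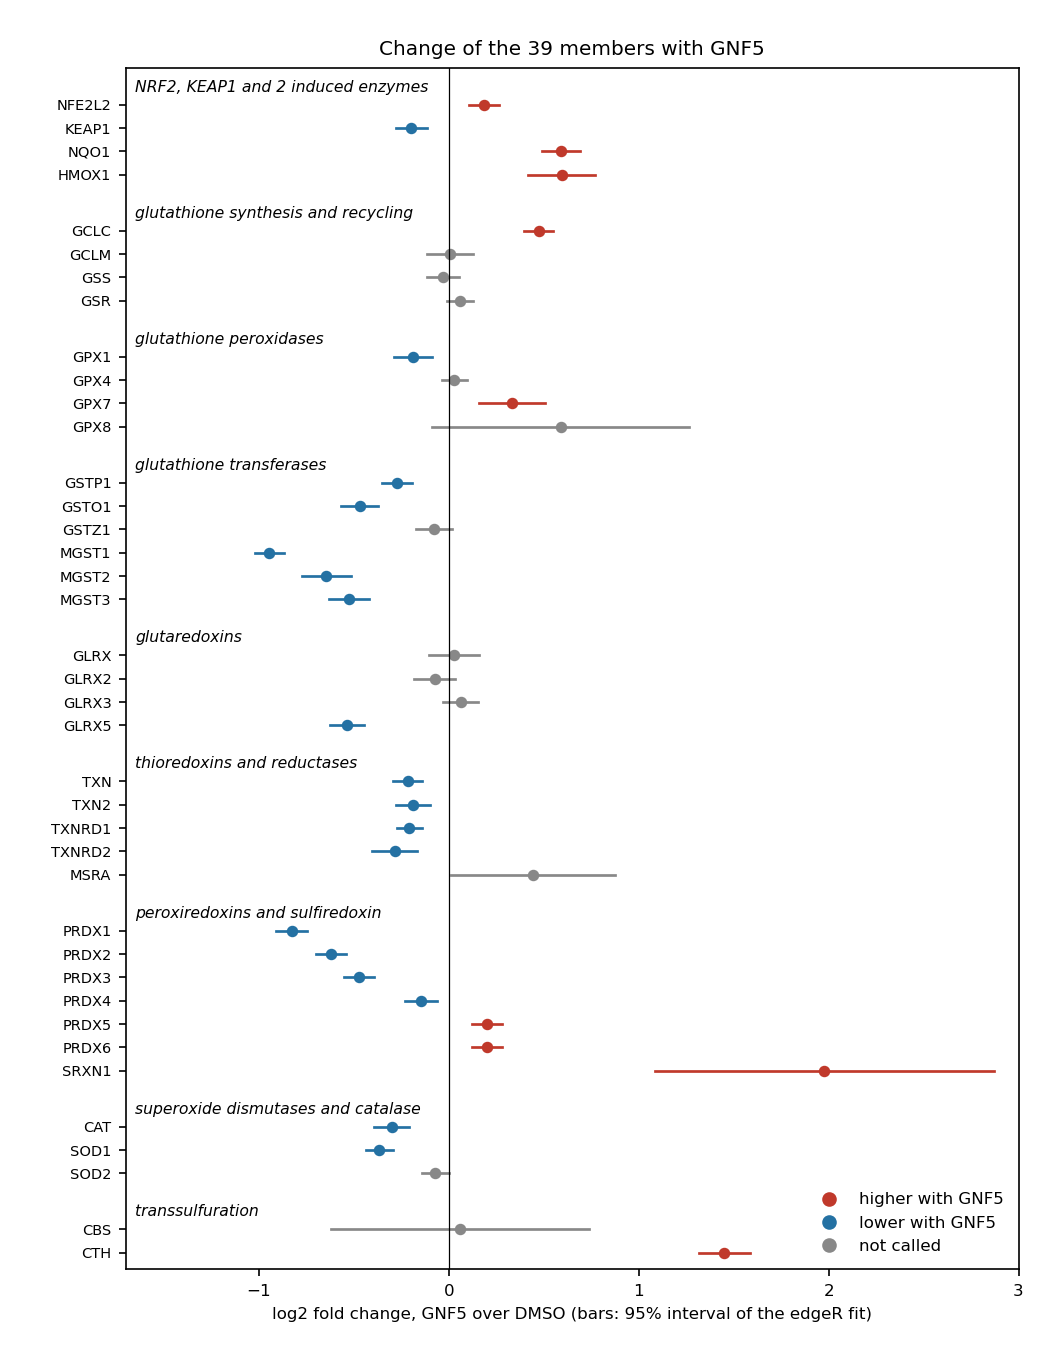
Log2 fold change of each of the 39 members, GNF5 over DMSO (x axis), by role (y axis), where points are edgeR estimates from 3 libraries a group and bars are 95% intervals. The 9 higher genes (red) are spread over 5 of the 9 groups, the 18 lower genes (blue) include 5 of the 6 transferases, the thioredoxins and their reductases, and peroxiredoxins 1 to 4, and 12 genes (grey) were not called.

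The NRF2 gene itself rose slightly, the gene of its inhibitor fell slightly, and a pair of enzymes classically induced by NRF2 rose by about 1.5-fold. NFE2L2 (ENSG00000116044, chromosome 2, 177227595 to 177392697, minus strand, GRCh38) had 89.2, 85.1 and 87.6 CPM in GNF5 libraries, against 74.2, 80.0 and 76.4 CPM in DMSO libraries. Every GNF5 library lay above every DMSO library, and the log2 fold change was 0.18 ± 0.039 (SE, adjusted p = 1.8e-04). Of its exon bases, 18.6% also belong to another gene model on the same strand, so part of its reads was not counted. KEAP1 (ENSG00000079999, chromosome 19, 10486125 to 10503558, minus strand) had 91.6, 86.6 and 88.2 CPM with GNF5, against 107.0, 99.6 and 98.9 CPM with DMSO, a log2 fold change of -0.20 ± 0.039. Here too the groups did not overlap (adjusted p = 7.75e-05).

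NQO1 (ENSG00000181019, chromosome 16, 69706996 to 69726668, minus strand) encodes a quinone reductase that is a standard readout of NRF2 activity. Its level was 50.9, 48.6 and 47.1 CPM in GNF5 libraries, against 34.4, 30.8 and 32.2 CPM in DMSO libraries, which is 1.5-fold (log2 fold change 0.59 ± 0.049, adjusted p = 2.0e-11). HMOX1, the heme oxygenase that breaks down heme, was less abundant, at 12.6, 10.9 and 11 CPM with GNF5 and 6.89, 7.74 and 8.24 CPM with DMSO (0.59 ± 0.086, adjusted p = 8.0e-07). In both genes the lowest GNF5 library stood above the highest DMSO library.

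**Figure D2:**
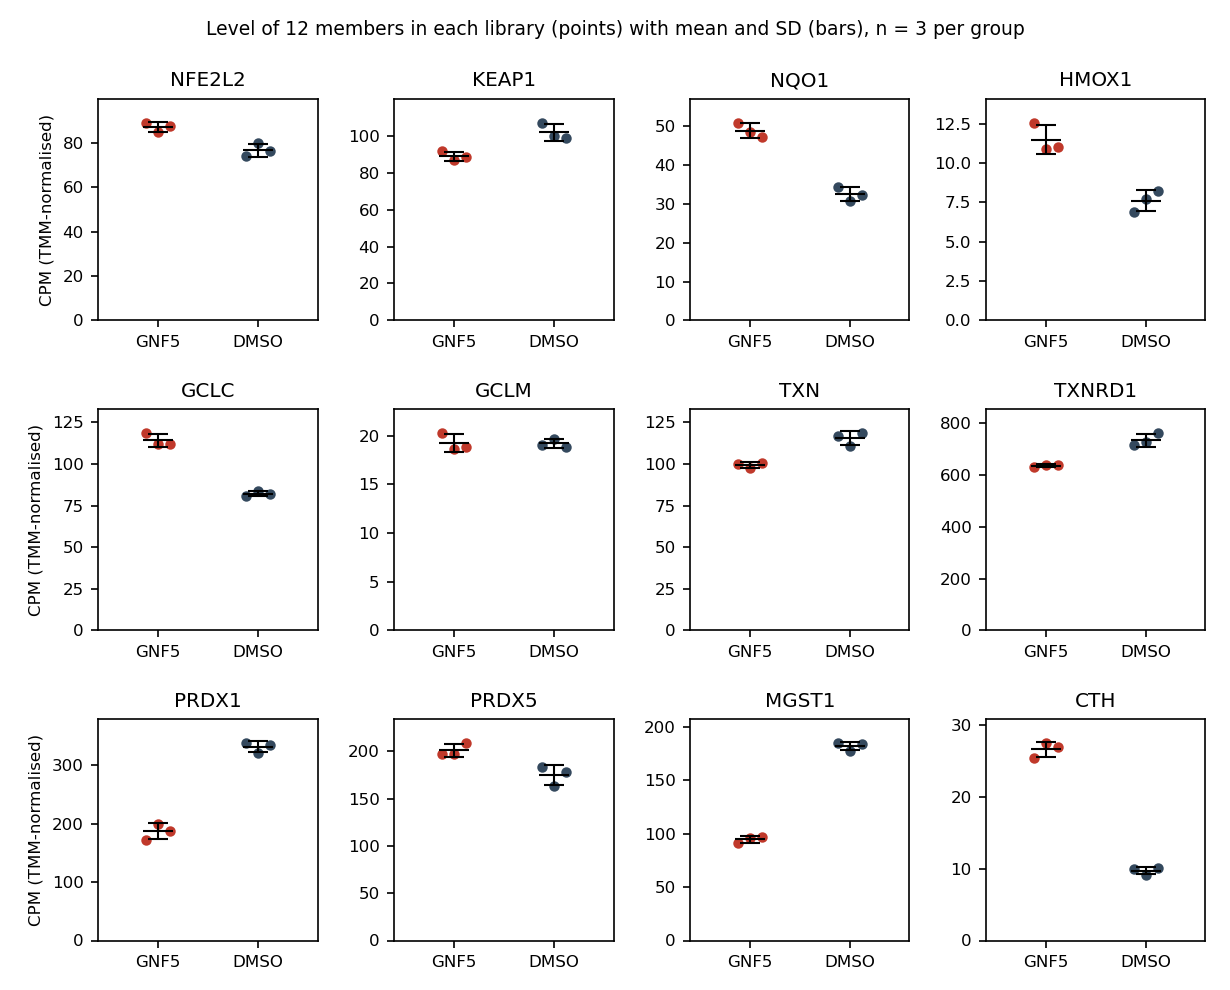
Level of 12 members in CPM (y axes, each from 0) in the GNF5 and DMSO libraries, where points are libraries and bars are the mean and SD of 3. NFE2L2, NQO1, HMOX1, GCLC, PRDX5 and CTH are higher with GNF5, KEAP1, TXN, TXNRD1, PRDX1 and MGST1 are lower, and the groups overlap for GCLM alone among these 12.

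Promoter sequences are shown because members known as NRF2 targets moved in different directions. They come from RefSeq (GRCh38.p14), in windows of 300 bases that run from 250 bases before the start of a transcript to 50 after it, and 29 of the 39 members matched, with 46 windows. The element's core was searched as TGACNNNGC on both strands. NQO1, which rose, has no match in its window (chr16:69726511-69726810, minus strand). GCLM, which was not called, has 1 match, 34 bases before the start (chr1:93909381-93909680, minus strand). KEAP1, which fell, has 2 matches, 54 and 31 bases before the start (chr19:10502722-10503021, minus strand). GSTP1 and TXNRD1, which also fell, have a match 66 bases (chr11:67583562-67583861, plus strand) and 102 bases (chr12:104286782-104287081, plus strand) before the start, and a further TXNRD1 window holds 2 more. Each sequence is written 5′ to 3′ along its gene, with matches to the core, on either strand, in capitals.
NQO1: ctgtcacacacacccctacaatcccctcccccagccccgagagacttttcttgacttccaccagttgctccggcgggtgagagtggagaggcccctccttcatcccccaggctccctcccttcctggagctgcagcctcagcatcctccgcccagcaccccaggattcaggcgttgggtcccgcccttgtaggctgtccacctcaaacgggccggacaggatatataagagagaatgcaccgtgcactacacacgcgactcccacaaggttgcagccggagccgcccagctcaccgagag
GCLM: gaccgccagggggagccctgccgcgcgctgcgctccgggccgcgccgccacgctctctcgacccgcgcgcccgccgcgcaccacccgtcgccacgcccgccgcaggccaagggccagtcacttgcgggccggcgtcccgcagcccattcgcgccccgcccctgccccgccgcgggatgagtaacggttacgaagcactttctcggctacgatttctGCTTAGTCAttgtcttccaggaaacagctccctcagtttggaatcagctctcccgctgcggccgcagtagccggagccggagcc
KEAP1: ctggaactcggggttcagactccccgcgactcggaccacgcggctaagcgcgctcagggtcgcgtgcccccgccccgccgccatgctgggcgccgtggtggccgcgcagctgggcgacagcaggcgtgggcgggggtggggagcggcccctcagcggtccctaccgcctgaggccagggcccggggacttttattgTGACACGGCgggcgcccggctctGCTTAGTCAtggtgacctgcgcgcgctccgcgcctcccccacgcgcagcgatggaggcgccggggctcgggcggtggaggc
GSTP1: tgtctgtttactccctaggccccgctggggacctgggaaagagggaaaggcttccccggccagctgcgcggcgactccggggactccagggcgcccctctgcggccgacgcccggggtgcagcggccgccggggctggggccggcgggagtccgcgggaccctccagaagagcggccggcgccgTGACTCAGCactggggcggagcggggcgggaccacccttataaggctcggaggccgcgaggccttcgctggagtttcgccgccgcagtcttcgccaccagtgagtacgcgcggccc
TXNRD1: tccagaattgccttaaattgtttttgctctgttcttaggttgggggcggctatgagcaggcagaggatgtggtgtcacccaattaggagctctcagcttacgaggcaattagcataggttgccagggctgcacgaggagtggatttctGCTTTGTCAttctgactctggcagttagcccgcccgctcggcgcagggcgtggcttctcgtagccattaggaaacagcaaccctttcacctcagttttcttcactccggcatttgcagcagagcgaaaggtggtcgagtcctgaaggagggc

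The core occurs in 8 of the 46 member windows (17.4%) and in 13.4% of all 35116 windows in the table. The 7 member genes with a match were CBS, GCLM, GSTO1, GSTP1, KEAP1, MGST1 and TXNRD1, of which 0 rose, 5 fell and 2 were not called. A gene was counted here if any of its windows matched. CBS, KEAP1 and MGST1 also have windows without a match, and the MGST1 match lies 30 bases after the start. HMOX1 and PRDX1 are among the 10 members without a window. Over all 39 members 23.1% rose and 46.2% fell, and over all tested genes 31.0% and 30.7%. Among the 22 members with a window and no match, 7 rose, 9 fell and 6 were not called. The windows of GCLC and CTH also hold no match. The letters TGATGNAA, the core of the composite site that ATF4 binds with C/EBP factors, were in 1 member window, that of GPX8, and in 3.62% of all windows. A match of letters is a description of the window and no evidence of binding, and known elements of several of these genes lie outside windows of this size.

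Of the genes that make and recycle glutathione, the catalytic subunit of the first enzyme rose, and the other 3 were not called. GCLC (ENSG00000001084, chromosome 6, 53497341 to 53616970, minus strand), the catalytic subunit of glutamate-cysteine ligase, had 118.8, 111.8 and 112.1 CPM in GNF5 libraries, against 80.8, 83.9 and 82.1 CPM in DMSO libraries. The groups were far apart beside their spread, with a log2 fold change of 0.47 ± 0.037 (adjusted p = 7.2e-12). GCLM, the modifier subunit of the same enzyme and a classical NRF2 target, had 20.3, 18.6 and 18.9 CPM with GNF5, against 19.1, 19.7 and 18.9 CPM with DMSO. Its values interleave, and the 95% interval of its log2 fold change ran from -0.12 to 0.13 (adjusted p = 0.946). Glutathione synthetase, GSS, which adds glycine, had a log2 fold change of -0.03 (adjusted p = 0.546). Glutathione reductase, GSR, which returns the oxidised dimer to glutathione, had 0.06 (adjusted p = 0.124), with a 95% interval from -0.01 to 0.13.

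Among 4 genes of the glutathione peroxidase family, 1 rose, 1 fell and 2 were not called. GPX1, the cytosolic form, had 48.1, 49.6 and 54.1 CPM in GNF5 libraries, against 60.7, 53.8 and 58.6 CPM in DMSO libraries. The highest GNF5 library lay just above the lowest DMSO library, and the gene was called lower at -0.19 ± 0.049 (adjusted p = 0.0015). GPX4, which reduces lipid peroxides in membranes and guards against ferroptosis, had 222.8, 231.6 and 231.2 CPM with GNF5, against 226.9, 219.9 and 225.5 CPM with DMSO. It was not called (log2 fold change 0.03, 95% interval -0.04 to 0.09). GPX7, a peroxidase of the endoplasmic reticulum, rose by 0.33 ± 0.085 on the log2 scale (adjusted p = 0.0013). GPX8, of the same compartment, was low, with 92 counts over the GNF5 libraries and 67 over the DMSO libraries, and was not called (0.59 ± 0.33). Per exon length, GPX4 made up 69.1% ± 0.71 of the summed level of these 4 genes with GNF5 and 66.8% ± 1.19 with DMSO. GPX2, a family gene outside the members with 15543 counts in the 6 libraries together, is not in that sum.

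Of 6 glutathione transferases, which attach glutathione to electrophiles, 5 fell (83.3%, against 30.7% of all tested genes), 0 rose and GSTZ1 was not called, with a median log2 fold change of -0.50. All 6 have a mean log2 CPM of at least 4, where 78.1% of all genes were called in either direction. MGST1 (ENSG00000008394, chromosome 12, 16347142 to 16609259, plus strand), a microsomal transferase that also acts as a peroxidase, had 90.8, 96.3 and 96.5 CPM in GNF5 libraries, against 184.8, 177.1 and 183.6 CPM in DMSO libraries. Its GNF5 mean of 94.5 CPM was 0.52 of the DMSO mean of 181.8 CPM, and its log2 fold change of -0.94 ± 0.036 had the lowest adjusted p of the 39 members (6.1e-19). MGST2 and MGST3, of the same membrane family, fell by 0.64 ± 0.063 and 0.52 ± 0.051 on the log2 scale, with 13.8, 14.9 and 16.0 CPM for MGST2 with GNF5 against 24.1, 22.6 and 23.2 CPM with DMSO. The soluble omega-class gene GSTO1 fell by 0.47 ± 0.047. GSTP1, the most abundant transferase per exon length, had 145.5, 160.4 and 163.1 CPM with GNF5, against 192.5, 185.3 and 189.2 CPM with DMSO (-0.27 ± 0.038). GSTZ1, which acts in tyrosine breakdown, was not called, although its 3 GNF5 values lay below its 3 DMSO values (-0.08 ± 0.046, adjusted p = 0.149). Summed FPKM of the 6 genes were 132.5 ± 6.39 in GNF5 libraries and 174.6 ± 3.24 in DMSO libraries, and MGST1's share of them was 9.59% with GNF5 and 14% with DMSO.

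Of 4 glutaredoxins, small oxidoreductases that use glutathione, GLRX5 fell and the others were not called. GLRX5, a mitochondrial protein of iron-sulfur cluster assembly, had 57.0, 58.1 and 64.9 CPM in GNF5 libraries, against 88.7, 86.8 and 85.6 CPM in DMSO libraries (-0.54 ± 0.044, adjusted p = 1.8e-11). Log2 fold changes were 0.03 for GLRX, the cytosolic form (95% interval -0.10 to 0.16), -0.07 for GLRX2, the mitochondrial and nuclear form (-0.18 to 0.03), and 0.06 for GLRX3, which handles iron-sulfur clusters in the cytosol (-0.03 to 0.15). Over the synthesis, peroxidase, transferase and glutaredoxin genes together, 2 of 18 rose, 7 fell and 9 were not called, with a median log2 fold change of -0.05.

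The 4 thioredoxin and thioredoxin reductase genes among the members all fell, each by a modest amount. All 4 have a mean log2 CPM of at least 4, where 78.1% of all genes were called in either direction. Over all genes of that level the median size of the change was 0.25. TXN (ENSG00000136810, chromosome 9, 110243810 to 110256507, minus strand), cytosolic thioredoxin, had 100.1, 97.3 and 100.7 CPM in GNF5 libraries, against 116.9, 110.9 and 118.7 CPM in DMSO libraries (-0.22 ± 0.037, adjusted p = 9.1e-06). TXNRD1 (ENSG00000198431, chromosome 12, 104215779 to 104350307, plus strand), its selenium-containing reductase and a known NRF2 target, had 629.0, 637.5 and 637.9 CPM with GNF5, against 713.7, 724.4 and 761.9 CPM with DMSO (-0.21 ± 0.033, adjusted p = 2.7e-06). Neither gene's groups overlapped. The mitochondrial partners fell as well, TXN2 by 0.19 ± 0.043 and TXNRD2 by 0.28 ± 0.058 on the log2 scale. MSRA, which uses thioredoxin to repair oxidised methionine, was low, with 239 counts over the GNF5 libraries and 196 over the DMSO libraries. It was not called (0.44 ± 0.21, adjusted p = 0.0708), but passed without DMSO replicate 2 (0.66, adjusted p = 0.0171) or without GNF5 replicate 1 (0.56, adjusted p = 0.0366). The median over these 5 genes was -0.21. TXNRD1 made up 97.5% of the summed FPKM of TXNRD1 and TXNRD2 with GNF5 and 97.3% with DMSO. TXNRD3, a reductase gene outside the members with 4161 counts in the 6 libraries together, is not in that sum.

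Of the 6 peroxiredoxin genes, 4 fell (66.7%, against 30.7% of all tested genes) and 2 rose (33.3%, against 31.0%). All 6 have a mean log2 CPM of at least 4, where 78.1% of all genes were called in either direction. All 4 typical 2-Cys enzymes, PRDX1 to PRDX4, fell, while the atypical PRDX5 and the 1-Cys enzyme PRDX6, which draws on glutathione, rose. PRDX1 (ENSG00000117450, chromosome 1, 45511036 to 45523047, minus strand), a cytosolic enzyme and known NRF2 target, had 172.7, 199.95 and 187.9 CPM in GNF5 libraries, against 338.1, 321.3 and 335.0 CPM in DMSO libraries. That is a log2 fold change of -0.83 ± 0.040 (adjusted p = 1.1e-15), with a wide gap between the groups. PRDX2, the other cytosolic form, had 267.9, 299.7 and 292.8 CPM with GNF5, against 456.9, 424.2 and 440.4 CPM with DMSO (-0.62 ± 0.038). Mitochondrial PRDX3 had 66.0, 68.9 and 65.4 CPM with GNF5, against 94.3, 90.4 and 92.8 CPM with DMSO (-0.47 ± 0.039). PRDX4, the form of the endoplasmic reticulum, had the smallest change of the 4, and its groups overlapped, at 103.3, 114.2 and 109.6 CPM with GNF5 and 126.0, 113.5 and 122.8 CPM with DMSO (-0.15 ± 0.041, adjusted p = 0.0029).

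PRDX5, found in mitochondria, peroxisomes and the cytosol, had 196.6, 197.4 and 209.0 CPM in GNF5 libraries, against 183.8, 162.9 and 178.3 CPM in DMSO libraries (0.20 ± 0.039, adjusted p = 6.4e-05). PRDX6 had 73.9, 72.6 and 71.3 CPM with GNF5, against 64.1, 62.3 and 63.1 CPM with DMSO (0.20 ± 0.039, adjusted p = 5.8e-05). For both genes all GNF5 libraries were the higher ones. In CPM, PRDX2 was the highest of the 6 in both groups, with a mean of 286.8 with GNF5 and 440.5 with DMSO. Per exon length, the order of the family differed between the groups. The length counts all annotated exons of a gene (860 bases for PRDX5, 1504 for PRDX1 and 2034 for PRDX2), so ranks between genes depend on the annotation. PRDX5 had the highest FPKM of the 6 with GNF5, at 233.7 ± 8.05, followed by PRDX2 at 141.0 ± 8.22 and PRDX1 at 124.2 ± 9.08. With DMSO, PRDX1 had 220.4 ± 5.95, PRDX2 216.6 ± 8.04 and PRDX5 203.5 ± 12.6 FPKM, and libraries of neighbours in that order overlapped. With GNF5, PRDX5 stood above both in every library, while PRDX2 and PRDX1 overlapped. PRDX5's share of the family was 38.4% ± 1.36 with GNF5 and 26.8% ± 0.59 with DMSO, and PRDX1's was 20.4% ± 0.84 with GNF5 and 29% ± 0.41 with DMSO. The summed level of the 6 genes was 608.9 ± 23.0 FPKM in GNF5 libraries and 760.3 ± 30.8 FPKM in DMSO libraries.

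**Figure D3:**
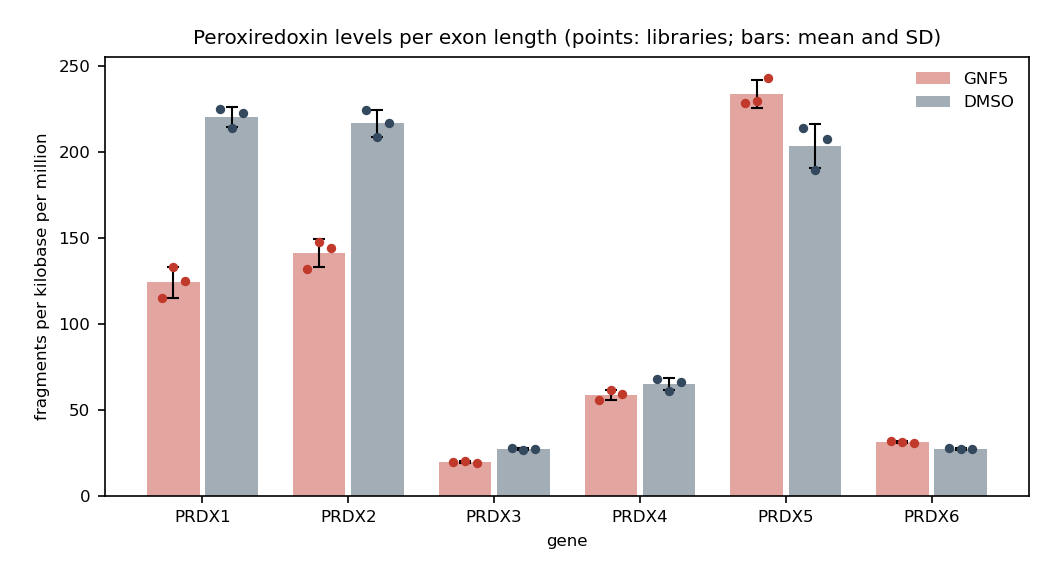
Level of the 6 peroxiredoxin genes in FPKM (y axis, from 0) in GNF5 (left of each pair) and DMSO libraries, where points are libraries, bars the mean and whiskers the SD of 3. PRDX1, PRDX2 and PRDX3 are lower with GNF5 and PRDX5 and PRDX6 are higher, while the 2 groups of PRDX4 overlap.

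Sulfiredoxin, SRXN1 (ENSG00000271303, chromosome 20, 646615 to 653200, minus strand), restores peroxiredoxins that were overoxidised and is a known target of NRF2. It had 18, 21 and 29 counts in GNF5 libraries, against 5, 8 and 6 counts in DMSO libraries, or 0.438 ± 0.124 CPM and 0.108 ± 0.022 CPM. The groups did not overlap, and the log2 fold change of 1.98 ± 0.44 (adjusted p = 2.7e-04) had the largest SE of the 39 members. Of this gene's exon bases, 90.7% also belong to another gene model on the same strand. Reads in such bases were left out by the counting, so these counts cover a small part of the transcript and the level is understated in both groups. With a filter of at least 1 CPM in 3 libraries the gene is not tested.

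The transsulfuration pathway, which makes cysteine from homocysteine, is a pair of enzymes, of which CTH rose and CBS was not called. CTH (ENSG00000116761, chromosome 1, 70411218 to 70439851, plus strand), the lyase that releases cysteine, had 25.4, 27.5 and 26.9 CPM in GNF5 libraries, against 10.0, 9.13 and 10.0 CPM in DMSO libraries. The level was 2.74-fold higher with GNF5, a log2 fold change of 1.45 ± 0.064 (adjusted p = 1.9e-17). CBS (ENSG00000160200, chromosome 21, 43053191 to 43076943, minus strand), which makes the cystathionine that CTH cleaves, had 11.2, 10.3 and 12.6 CPM with GNF5, against 8.85, 14.9 and 9.04 CPM with DMSO. It was not called (0.06 ± 0.26, adjusted p = 0.868), and DMSO replicate 2 lay above all other libraries. Without that replicate the log2 fold change was 0.34 and passed (adjusted p = 0.00223).

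In the GRCh38 annotation CBS has a near-identical copy on the same chromosome, CBSL (6444869 to 6468040), and reads that fit both were not counted for either. CBSL had 6.98, 7.57 and 6.81 CPM in GNF5 libraries, against 4.69, 4.18 and 6.80 CPM in DMSO libraries (0.45 ± 0.13, adjusted p = 0.00578). The DMSO library with the highest CBS level had the lowest CBSL level. Summed over both copies the level was 18.2, 17.9 and 19.5 CPM with GNF5, against 13.5, 19.1 and 15.8 CPM with DMSO, and the sum was not called (0.19 ± 0.091, adjusted p = 0.0753). The values of either copy alone are therefore uncertain.

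**Figure D4:**
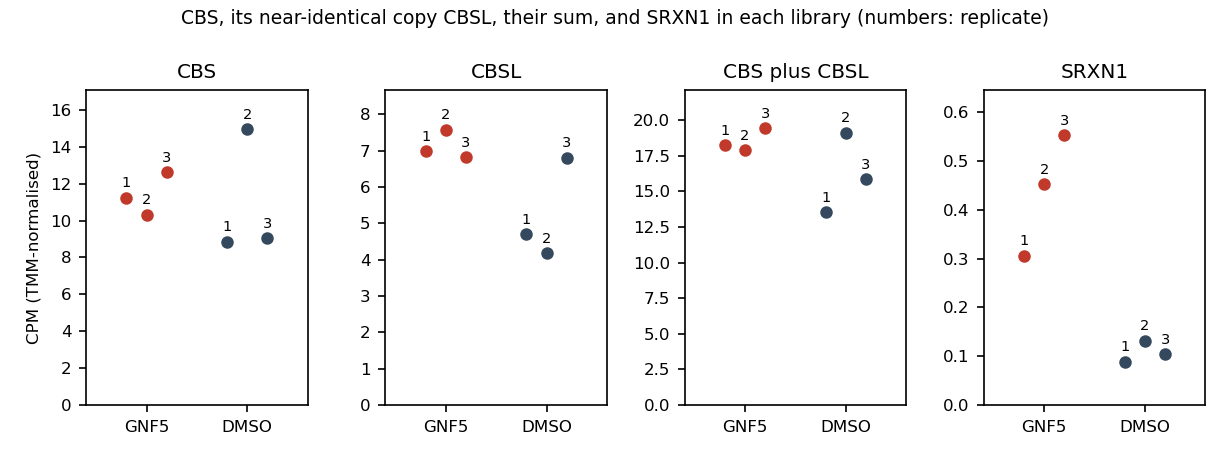
Level in CPM (y axes, each from 0) of CBS, its copy CBSL, their sum and SRXN1 in the GNF5 and DMSO libraries, where each point is 1 library and its number the replicate. DMSO replicate 2 is the highest library for CBS and the lowest for CBSL, and SRXN1 stays under 0.6 CPM in every library.

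Of the enzymes that remove superoxide and hydrogen peroxide without a thiol, 2 of 3 fell (66.7%, against 30.7% of all tested genes). All 3 have a mean log2 CPM of at least 4, where 78.1% of all genes were called in either direction. SOD1, the cytosolic copper-zinc superoxide dismutase, had 140.6, 138.4 and 145.4 CPM in GNF5 libraries, against 186.6, 175.7 and 184.9 CPM in DMSO libraries (-0.37 ± 0.035, adjusted p = 3.9e-10). CAT, the catalase of peroxisomes, had 36.2, 36.4 and 34.0 CPM with GNF5, against 44.5, 43.1 and 43.6 CPM with DMSO (-0.30 ± 0.046). Both pairs of groups stood clear of each other. SOD2, the mitochondrial manganese enzyme, had 129.1, 129.0 and 133.3 CPM with GNF5, against 132.2, 139.3 and 139.8 CPM with DMSO, and was not called (-0.07 ± 0.035, adjusted p = 0.0803). It passed with upper-quartile factors (-0.10, adjusted p = 0.0204), with a filter of at least 1 CPM in 3 libraries (-0.08, adjusted p = 0.035) and without DMSO replicate 1 (-0.10, adjusted p = 0.0225).

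The counts of the 4 systems can be read beside the 31.0% of all tested genes that were higher and the 30.7% that were lower. The glutathione genes had 2 higher (11.1%) and 7 lower (38.9%) of 18, the thioredoxin genes 0 higher and 4 lower of 5, the peroxiredoxins with sulfiredoxin 3 higher and 4 lower of 7, and the transsulfuration genes 1 higher and 0 lower of 2. Their median log2 fold changes were -0.05, -0.21, -0.15 and 0.75, against 0.0057 for all tested genes. Grouped by place in the cell, 6 members with mitochondrial products (TXN2, TXNRD2, PRDX3, SOD2, GLRX2 and GLRX5) had 4 lower and 0 higher, with a median of -0.24. PRDX5, found in mitochondria and elsewhere in the cell, is not among these 6 and was higher (0.20). The 3 chosen for the endoplasmic reticulum (PRDX4, GPX7 and GPX8) had 1 higher and 1 lower. The microsomal transferase MGST1 and its relatives MGST2 and MGST3, left out of these 3, were all lower (-0.94, -0.64 and -0.52). The 4 members that are selenoproteins (GPX1, GPX4, TXNRD1 and TXNRD2) had 3 lower and 0 higher. No difference between these groups was tested.

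Of 10 genes that act on NRF2, 5 were higher and 4 lower. All 10 have a mean log2 CPM of at least 4, where 78.1% of all genes were called, so this count is near the share over genes of that level. SQSTM1, an autophagy receptor that removes KEAP1, rose by 0.53 ± 0.032 on the log2 scale. BACH1, a repressor that competes with NRF2 for its elements, rose by 0.62 ± 0.046, and the related factor NFE2L1 by 0.39 ± 0.031. The ligase components RBX1 and CUL3, which act with KEAP1, fell by 0.76 ± 0.046 and 0.25 ± 0.037. The kinase gene GSK3B, which marks NRF2 for a route of degradation that does not need KEAP1, fell by 0.12 ± 0.041 (adjusted p = 0.0124). Its call was lost without DMSO replicate 2 (-0.08, adjusted p = 0.0849) or GNF5 replicate 2 (-0.10, adjusted p = 0.068).

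Other textbook targets of NRF2 moved both ways, with 11 of 20 tested genes higher (55%) and 6 lower (30%), against 31.0% and 30.7% of all tested genes, and with a median log2 fold change of 0.33. AKR1C1, an aldo-keto reductase, had 18.5, 18.9 and 18.3 CPM in GNF5 libraries, against 4.5, 4.31 and 4.11 CPM in DMSO libraries (2.11 ± 0.079), although near-identical AKR1C genes make its count uncertain. FTH1, the heavy chain of the iron store ferritin, rose by 0.82 ± 0.037. On the lower side were AKR1B1 (-0.65 ± 0.039), an aldose reductase, and the pentose phosphate enzymes PGD (-0.59 ± 0.036) and TALDO1 (-0.54 ± 0.038). In the list of NADPH production, 7 of 16 rose (43.8%) and 6 fell (37.5%). ALDH1L2 (3.01 ± 0.095), MTHFD1L (1.43 ± 0.057) and MTHFD2 (0.71 ± 0.036), enzymes of the mitochondrial folate pathway, rose, while mitochondrial isocitrate dehydrogenase, IDH2, fell (-0.63 ± 0.037).

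Cysteine supply and glutathione breakdown had 7 of 13 tested genes higher (53.8%, against 31.0% of all tested genes) and 3 lower (23.1%, against 30.7%). SLC7A11, the cystine transporter, had 137.3, 132.2 and 130.1 CPM in GNF5 libraries, against 42.7, 46.5 and 44.2 CPM in DMSO libraries (1.58 ± 0.041). CHAC1, which cleaves glutathione in the cytosol and is a known target of the ATF4 and CHOP pathway, rose by 1.36 ± 0.069. OPLAH, which returns 5-oxoproline to glutamate, rose by 1.94 ± 0.090. CHAC2, a relative of CHAC1 and a slower glutathione-cleaving enzyme, fell by 0.91 ± 0.100, GGCT, of the same cycle, by 0.19 ± 0.038, and the cysteine dioxygenase gene CDO1 by 0.24 ± 0.085. GGCT shares 27.7% of its exon bases with another gene model, and the CDO1 call was lost without DMSO replicate 3 or GNF5 replicate 3 (adjusted p = 0.0562 and 0.0614). Of the methionine cycle and sulfide oxidation, 5 of 11 rose (45.5%), among them MPST, a sulfurtransferase (0.53 ± 0.044), AHCYL1 (0.27 ± 0.035) and MTRR (0.23 ± 0.051), and 3 fell (27.3%), TST, the rhodanese (-0.62 ± 0.093), MAT2B (-0.23 ± 0.046) and AHCY (-0.13 ± 0.033).

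Among other members of the same enzyme families, 7 of 22 tested genes rose (31.8%, against 31.0% of all tested genes) and 12 fell (54.5%, against 30.7%). TXNIP, which binds thioredoxin and blocks its active site, had 15.2, 15.9 and 15.3 CPM in GNF5 libraries, against 98.2, 116.4 and 118.9 CPM in DMSO libraries. Its level was 7.18-fold lower with GNF5, a log2 fold change of -2.85 ± 0.062. MSRB1, a selenoprotein that repairs oxidised methionine, fell by 0.94 ± 0.066, and GPX2 by 0.59 ± 0.045. SESN2, a sestrin that restrains mTORC1 under stress, rose by 1.35 ± 0.047, the transferase gene GSTK1 by 0.35 ± 0.048 and the disulfide isomerase gene TXNDC5 by 0.36 ± 0.045, though 61% of TXNDC5's exon bases are shared with a read-through gene model.

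Selenoprotein synthesis, on which GPX1, GPX4 and the thioredoxin reductases depend, had 4 of 9 genes higher (44.4%, against 31.0% of all tested genes) and 2 lower (22.2%, against 30.7%). SEPHS2, which makes the selenium donor, rose by 0.67 ± 0.036, and SECISBP2L and SECISBP2, which read the selenocysteine insertion element or resemble its reader, by 0.33 ± 0.051 and 0.13 ± 0.034. TRNAU1AP, a partner of the selenocysteine tRNA, fell by 0.45 ± 0.072, and SEPHS1 by 0.13 ± 0.043, a call lost without GNF5 replicate 3 (adjusted p = 0.0567). Of 11 other selenoprotein genes tested, 3 rose (27.3%) and 3 fell, both near the shares over all tested genes. The higher ones were SELENOS (0.84 ± 0.042), SELENOK (0.37 ± 0.051) and SELENOO (0.15 ± 0.046), of which SELENOS and SELENOK serve protein degradation at the endoplasmic reticulum. SELENOH (-0.31 ± 0.053), SELENON (-0.26 ± 0.038) and SELENOW (-0.25 ± 0.047) fell, and 18.6% of SELENOH's exon bases are shared with another gene model.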

How the data were processed

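Groups and replicate numbers came from the labels. The authors deposited raw, unnormalised counts, made with featureCounts 1.6.1 on fragments, reverse-stranded, over exons of the Ensembl release 101 annotation (GRCh38), per the file headers. Multi-mapped reads and reads that overlap several genes were left out, which lowers the counts of genes with copies or shared exons. STAR, Trim Galore, DESeq2, HTSeq and GRCh37 appear, without roles, in the submitters' processing notes. The headers were followed, and the alignment's own build remains unsettled. Symbols were looked up by gene ID (60401 of 60671 had an entry), with SOD2 and CBSL by their GENCODE names.

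The 6 libraries were fitted in edgeR 4.0.16 (R 4.3.3) with TMM normalisation, the default expression filter and the robust quasi-likelihood test, without covariates. Genes were called at a Benjamini-Hochberg adjusted p under 0.05 over all 20734 tested genes. The 39937 removed genes held 0.063% of counts. CPM values are TMM-normalised, FPKM are CPM divided by exon length in kilobases, and the SE is the log2 fold change divided by the square root of F. That length counts all annotated exons of a gene, so FPKM ranks and shares between genes depend on the annotation. Within groups, every pair of libraries differed beyond sampling noise (chi-square divided by its degrees of freedom, 3.18 to 8.76). The steps were tested on simulated data. A gene with 3 counts lay between 0.0494 and 0.065 CPM, a figure that covers counting error only.

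The members and all lists were chosen with earlier results of these data known. The text names every member and, of each of 8 pathway lists, up to 3 called genes a direction with the lowest p and a mean log2 CPM of at least 1. CBSL was named after its values were seen. Alternatives were DESeq2 1.42.0 and its size factors, upper-quartile factors, no filter on low counts, at least 1 CPM in 3 libraries, a fit without robust moderation, a replicate block, a test against a 1.5-fold change, leaving out each library and, added after seeing the data, CBS and CBSL summed.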

Additional observations from a re-analysis of the deposited data

How the results depend on the processing

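All 27 member calls were kept, in the same direction, under the alternatives run other than the test against a 1.5-fold change, except that SRXN1 is not tested with at least 1 CPM in 3 libraries. In these alternatives members called higher ranged from 8 to 11 and lower from 18 to 19, and scalings moved the median of all genes by under 0.03 on the log2 scale. Against a 1.5-fold change, 2 members were higher (CTH and SRXN1) and 2 lower (MGST1 and PRDX1), and 1240 and 1560 of all genes were higher and lower, a stricter question by construction. In that test 1 transferase was lower and 1 gene of the peroxiredoxin group was higher and 1 lower. Calls in that test were 0 for NRF2 and KEAP1 with their enzymes, glutathione synthesis, glutathione peroxidases, glutaredoxins, thioredoxins, superoxide dismutases with catalase, and methionine and sulfide genes. Of the pathway lists, NRF2 partners had 0 higher and 1 lower, and cysteine supply 4 higher and 1 lower. NADPH production had 4 higher and 0 lower, and other family members 2 higher and 2 lower. Selenoprotein synthesis and other selenoproteins each had 1 higher and 0 lower. Other NRF2 targets had 0 lower, and 7 genes of that list were called at least 2-fold higher in the test without a fold threshold. Leaving out 1 library at a time, higher calls ranged from 1 to 2 for the glutathione peroxidases (GPX8 passed without DMSO replicate 3, adjusted p = 0.0473), from 0 to 1 for the thioredoxin group (MSRA, without DMSO replicate 2 or GNF5 replicate 1) and from 1 to 2 for transsulfuration (CBS, without DMSO replicate 2). Lower calls in selenoprotein synthesis ranged from 1 to 2 (SEPHS1 was lost without GNF5 replicate 3). The cause of these shifts was not tested. Same-numbered libraries did not deviate together (correlations -0.112, -0.0256 and 0.00366). With deviations taken from the means of 3 libraries a group, these values cannot settle whether the numbers pair libraries. The fit with the replicate block called 6279 genes higher and 6196 lower and changed no member call. DESeq2 called 6006 genes higher and 6062 lower. Depth limits what can be said of SRXN1, GPX8 and MSRA, and shared reads limit SRXN1 and CBS.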
